A study of Mus musculus with 12 samples.

Results

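The 10 genes followed here act before, during or after the choice of an odorant receptor (OR), and were measured after the deletion of the J element, a *cis*-regulatory element of the class I OR gene cluster. They comprise 5 genes of receptor silencing (*Kdm1a*, *Ehmt1*, *Ehmt2*, *Lbr* and *Cbx5*), 2 genes of the feedback that follows receptor expression (*Atf5* and *Eif2ak3*) and 3 genes of receptor transport (*Rtp1*, *Rtp2* and *Reep1*). Each was read by 1 probe set, a group of probes spread over the exons of a gene, that carried this gene as its only symbol, so the set comprised 10 of 35556 probe sets. Total RNA of the whole main olfactory epithelium (MOE) had been hybridised to 12 arrays, 1 per mouse, for 6 ΔJ mice and 6 wild-type littermates. The ΔJ mice were homozygous for a CRISPR-Cas9 deletion of J, in a line from a single founder made in B6C3F1 eggs and crossed back to C57BL/6NCrSlc, and the labels give the strain as C57BL/6. Of the ΔJ mice 3 were male and 3 female, and of the wild-type mice 2 were male and 4 female. Tissue was taken at P30, or at P33 in 1 ΔJ and 2 wild-type mice. In RNA of a whole tissue, fewer cells of a type and less RNA per cell cannot be told apart.

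Each olfactory sensory neuron (OSN) expresses a single OR gene from a large repertoire, while the other OR genes lie in compacted chromatin that carries methylated lysine 9 of histone H3. The first OR protein made in a neuron engages the unfolded protein response in the endoplasmic reticulum, in which the kinase PERK, the product of *Eif2ak3*, phosphorylates the translation factor eIF2α. This lets the transcription factor ATF5 be translated, and the neuron then matures and stabilises its choice. Accessory proteins of the RTP and REEP families carry ORs to the cell surface. The comparison between genotypes asks whether the RNA of these genes in the MOE differed when class I OR genes had lost the J element.

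All levels are log2 signals relative to the 75th percentile of the array, and a difference of levels is a log2 fold change. Levels of different genes come from different probes and were not set against each other, except as a gauge of background for *Rtp3*. The genotype labels were checked on *Olfr544*, a class I OR gene, which had a level of -3.40 ± 0.12 in ΔJ mice and -1.57 ± 0.12 in wild-type mice (SD, n = 6 each), with no overlap and an adjusted p of 2.5e-07 (limma). *Omp* and *Cnga2*, which mark mature OSNs, had levels of 3.98 ± 0.02 and 3.43 ± 0.06 in ΔJ mice and 3.95 ± 0.07 and 3.38 ± 0.06 in wild-type mice (SD, n = 6 each). The standard deviation over all probe sets split the arrays into 2 sets of 6, at 2.20 to 2.23 in replicates 4 to 6 of each genotype, here the second set, and at 2.07 to 2.13 in replicates 1 to 3, the first set. All 3 mice of P33, 1 ΔJ and 2 wild-type, were in the second set, so age was not balanced between the genotypes within it. The labels name no such set.

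The promoters are the sequences from which the measured transcripts start. Of the 10 genes, 9 had an entry in the RefSeq promoters of GRCm38.p6, and *Rtp1* was not among them. The 12 windows of these genes, each the 250 bases before a gene start, were searched on both strands for CCCNNGGG. This is the core of the palindrome that Olf1/EBF factors bind in front of many genes of OSNs. The 50 bases after a start were not searched. The core occurred in the windows of *Rtp2* and *Reep1*, and in 11.8% of all 32851 windows. These 2 windows, of transport genes that hold the core, are shown as the 250 bases upstream of the start from 5′ to 3′ on the coding strand, with the core in capitals.
Rtp2, chr16:23930795-23931044 (minus strand): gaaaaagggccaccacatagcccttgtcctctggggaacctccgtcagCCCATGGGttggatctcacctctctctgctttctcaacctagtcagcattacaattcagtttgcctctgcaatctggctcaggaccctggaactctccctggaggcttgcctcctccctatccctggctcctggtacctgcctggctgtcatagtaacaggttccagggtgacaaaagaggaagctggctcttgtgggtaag
Reep1, chr6:71707431-71707680 (plus strand): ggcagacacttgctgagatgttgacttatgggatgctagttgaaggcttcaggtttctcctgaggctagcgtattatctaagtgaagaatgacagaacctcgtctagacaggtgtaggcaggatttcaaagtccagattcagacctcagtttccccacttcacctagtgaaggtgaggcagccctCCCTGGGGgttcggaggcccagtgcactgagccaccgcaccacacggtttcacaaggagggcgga

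The first base of the core lay 202 bases before the start in *Rtp2* and 65 bases before it in *Reep1*, where the start used lies inside the annotated span of the gene. The full palindrome, with a T before this core and an A after it, was in none of the 12 windows and in 0.779% of all windows. Short homeodomain sequences, of which TAATTA was found in 4.84% of all windows, TAATTG in 7.17%, TAATGA in 8.59% and TAATGG in 6.57%, were in none of the 12. They share their first 4 bases and were counted separately. The sequence AAACTTTTC, found in 0.362% of all windows, was also in none of the 12. A match of letters is not a binding site.

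No difference in RNA level between ΔJ and wild-type mice was detected for any of the 10 genes. With limma and adjustment over all probe sets, 0 of the 10 genes passed an adjusted p of 0.05, against 0.135% of all probe sets (48 of 35556, of which 46 or 0.129% were lower and 2 or 0.00562% were higher in ΔJ mice). At an unadjusted p under 0.05 the counts were 0 of 10 genes and 3.33% of all probe sets. The adjusted p of the 10 genes was 0.993 to 0.999. Their log2 fold changes ran from -0.06 for *Cbx5* to 0.11 for *Lbr*, with a median of 0.01 beside -0.03 over all probe sets, and 6 were positive and 4 negative. The ranges of the genotypes overlapped in all 10 genes, and 0.301% of all probe sets had ranges that did not.

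The differences in the signal of the whole MOE that the 12 arrays leave possible were small. The 95% interval of the fold change lay within 1.3-fold in either direction for all 10 genes. The lowest bound was 85.4% of the wild-type signal, for *Rtp2*, and the highest 128%, for *Lbr*. These intervals rest on 6 mice a genotype and do not show equal levels. They describe the whole tissue, and a change confined to some of its cells could be larger in those cells.

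**Figure D1:**
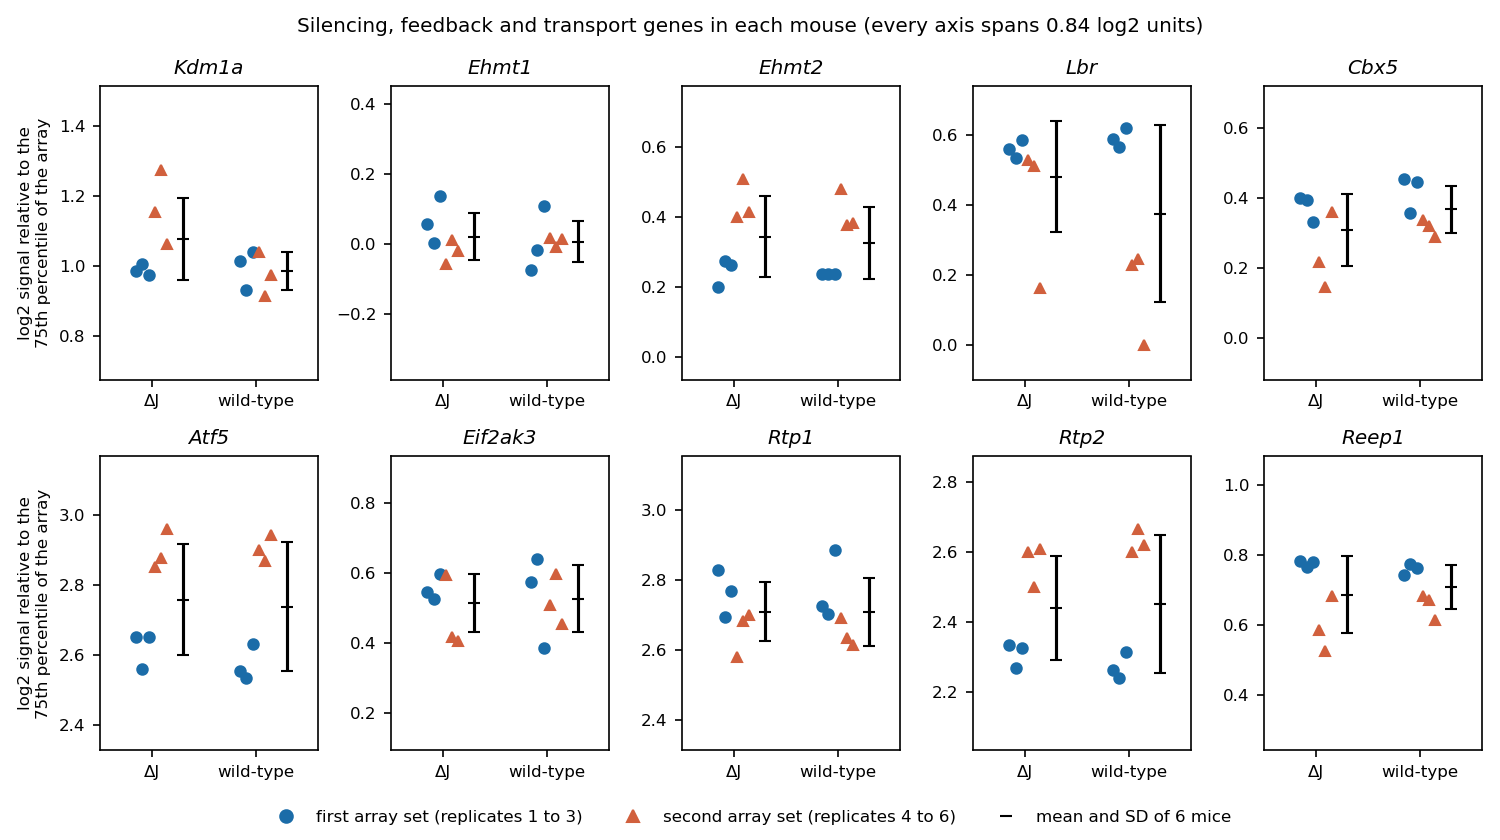
Levels of the 10 genes in each mouse, as log2 signal relative to the 75th percentile of the array (vertical axes, each spanning 0.84 log2 units), with ΔJ mice on the left and wild-type mice on the right of each panel. Circles are mice of the first array set and triangles of the second, and black bars give the mean and SD of 6 mice. The genotypes overlap in every panel, and in *Ehmt2*, *Lbr*, *Atf5*, *Rtp2* and *Reep1* the circles and triangles do not.

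Among the silencing genes, *Kdm1a* encodes the histone demethylase LSD1, which removes methyl groups from lysine 4 of histone H3 and is needed for the first activation of an OR allele. The gene lies on chromosome 4 from 136550533 to 136602787 (GRCm38.p6). Its lowest, median and highest levels were 0.97, 1.03 and 1.27 in ΔJ mice and 0.91, 0.99 and 1.04 in wild-type mice. Its mean was 1.08 ± 0.12 in ΔJ mice and 0.98 ± 0.05 in wild-type mice (SD, n = 6 each), a log2 fold change of 0.09 with a standard error of 0.06 and an adjusted p of 0.993 (limma). Without ΔJ replicate 5 the log2 fold change was 0.051. The 3 ΔJ mice of the second array set, at 1.15, 1.27 and 1.06, were the 3 highest of all 12 mice. Within the second set the 3 ΔJ mice were above the 3 wild-type mice, at 0.91 to 1.04, as happened in either direction in 14.3% of all probe sets. The 3 mice of P30 in that set, 2 ΔJ and 1 wild-type, averaged 1.16. The 3 of P33, 1 ΔJ and 2 wild-type, averaged 0.98, so these means mix age with genotype. With age but not the array set as a covariate, the log2 fold change of *Kdm1a* over all mice was 0.083. All mice of P33 were in the second set, so age and array set are mixed in that fit. Within the first set the genotypes overlapped, with ΔJ mice at 0.97 to 1.00 and wild-type mice at 0.93 to 1.04, and 8.32% of all probe sets were separated there. The difference between the genotype effects of the sets was 0.19 with a standard error of 0.10, and did not pass limma's interaction test (adjusted p = 0.909).

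*Ehmt1* and *Ehmt2* encode GLP and G9a, which form the enzyme that puts methyl groups on lysine 9 of histone H3 in silent chromatin. *Ehmt1* (chromosome 2, 24790769 to 24919643) had lowest, median and highest levels of -0.06, 0.01 and 0.14 in ΔJ mice and -0.07, 0.00207 and 0.11 in wild-type mice. *Ehmt2* (chromosome 17, 34898463 to 34914073) had 0.20, 0.34 and 0.51 in ΔJ mice and 0.24, 0.31 and 0.48 in wild-type mice. Their ranges covered each other almost fully. The log2 fold changes were 0.01 for *Ehmt1* and 0.02 for *Ehmt2*, with 95% intervals of -0.10 to 0.13 and -0.14 to 0.17.

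*Lbr* encodes the lamin B receptor, a protein of the inner nuclear membrane that tethers heterochromatin to the nuclear edge and whose removal in maturing OSNs accompanies the gathering of OR genes into foci. It lies on chromosome 1 from 181815315 to 181842401. Levels in ΔJ mice were 0.16 at the lowest, 0.53 at the median and 0.59 at the highest, and in wild-type mice -1.5e-05, 0.40 and 0.62. In the first array set the mice of either genotype lay close together, ΔJ mice at 0.53 to 0.59 and wild-type mice at 0.56 to 0.62. In the second set they spread apart, with ΔJ mice at 0.53, 0.51 and 0.16 and wild-type mice at 0.23, 0.24 and -1.5e-05. The 3 mice of P30 in that set, 2 ΔJ and 1 wild-type, averaged 0.42. The 3 of P33, 1 ΔJ and 2 wild-type, averaged 0.14, so these means mix age with genotype. With age but not the array set as a covariate, the log2 fold change of *Lbr* over all mice was 0.043. All mice of P33 were in the second set, so age and array set are mixed in that fit. *Lbr* had the widest spread of the 10 genes, with an SD of 0.21 over the 12 mice and of 0.13 within genotype and array set. Its log2 fold change was 0.11 with a standard error of 0.12, and the interaction of genotype and array set was 0.27 with a standard error of 0.14 (limma, adjusted p = 0.909).

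*Cbx5* encodes heterochromatin protein 1α, which binds methylated lysine 9 of histone H3 (chromosome 15, 103191546 to 103239904). Its levels were 0.15, 0.35 and 0.40 at the lowest, median and highest in ΔJ mice and 0.29, 0.35 and 0.46 in wild-type mice. The medians were alike, and 2 ΔJ mice of the second array set, at 0.22 and 0.15, were below all wild-type mice. Its log2 fold change of -0.06, with a 95% interval of -0.20 to 0.08, was the lowest of the 10.

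Of the feedback genes, *Atf5* lies on chromosome 7 from 44812256 to 44816658, the chromosome that also holds the class I cluster. Its lowest, median and highest levels were 2.56, 2.75 and 2.96 in ΔJ mice and 2.54, 2.75 and 2.94 in wild-type mice. The mean was 2.76 ± 0.16 in ΔJ mice and 2.74 ± 0.18 in wild-type mice (SD, n = 6 each), and the log2 fold change was 0.02 with a 95% interval of -0.19 to 0.23. ATF5 protein was not measured. *Eif2ak3* (chromosome 6, 70844484 to 70905241) had levels of 0.41, 0.54 and 0.60 in ΔJ mice and 0.39, 0.54 and 0.64 in wild-type mice. Its log2 fold change was -0.01, with a 95% interval of -0.15 to 0.13.

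*Rtp1* and *Rtp2* encode the receptor transporting proteins, which in cultured cells bring ORs to the plasma membrane, and lie near each other on chromosome 16 (23429133 to 23433960 and 23925548 to 23930794). *Rtp1* had lowest, median and highest levels of 2.58, 2.70 and 2.83 in ΔJ mice and 2.61, 2.70 and 2.89 in wild-type mice. *Rtp2* had 2.27, 2.42 and 2.61 in ΔJ mice and 2.24, 2.46 and 2.67 in wild-type mice. *Reep1*, whose product shapes tubules of the endoplasmic reticulum and also aids the surface expression of ORs in cultured cells, lies on chromosome 6 from 71707429 to 71810710. Its levels were 0.52, 0.72 and 0.78 in ΔJ mice and 0.61, 0.71 and 0.77 in wild-type mice. For *Reep1*, 2 ΔJ mice were above all wild-type mice and another 2 below them. The log2 fold changes were 0.000972 for *Rtp1*, -0.01 for *Rtp2* and -0.02 for *Reep1*, with 95% intervals of -0.14 to 0.14, -0.23 to 0.21 and -0.16 to 0.12.

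**Figure D2:**
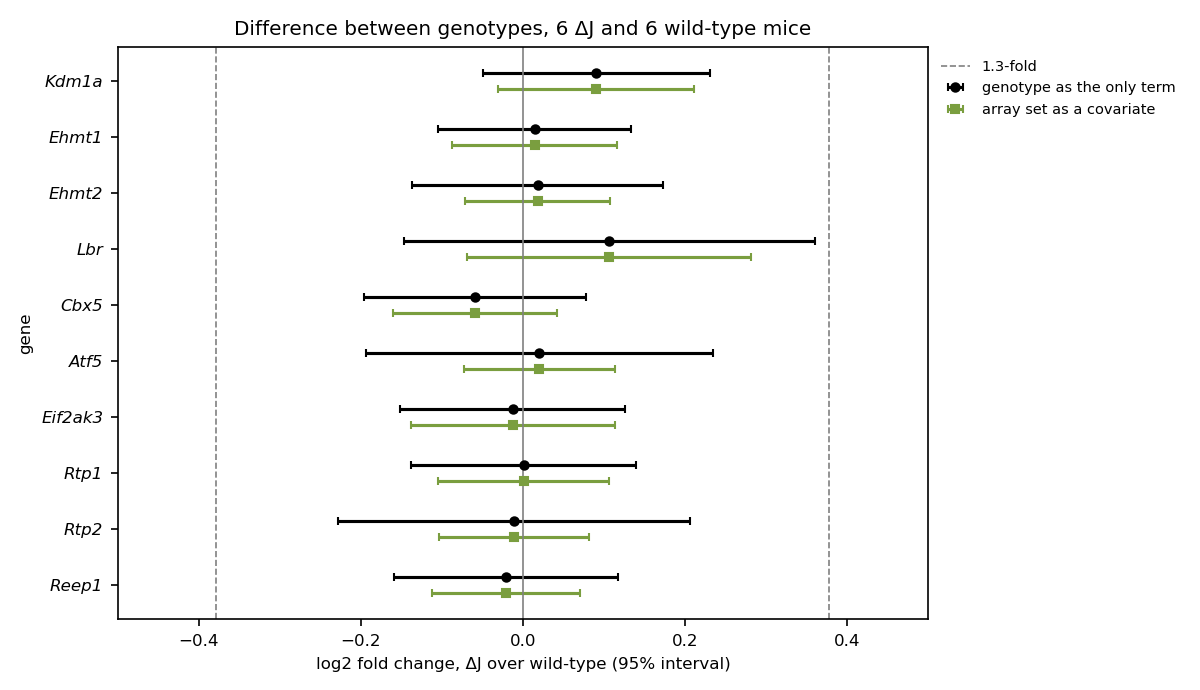
Log2 fold change of ΔJ over wild-type mice for each gene (horizontal axis), with 95% intervals from limma with genotype as the only term (black circles) and with the array set as a covariate (green squares). Every interval includes 0 and lies between the dashed lines at 1.3-fold, and the lowest bound is 85.4% of wild-type for *Rtp2* and the highest 128% for *Lbr*.

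Taking the array set into the model narrowed the intervals and left the outcome as it was. Their median width was 0.20 with the array set as a covariate and 0.28 without it. In that fit 0 of 10 genes passed an adjusted p of 0.05 and 0 an unadjusted p of 0.05 (limma), where 0.2% and 8.04% of all probe sets did, and the lowest adjusted p was 0.636, for *Kdm1a*. Of the tests of an interaction of genotype and array set, 0 of 10 passed at an adjusted and 0 at an unadjusted p of 0.05, where over all probe sets 0% passed the adjusted and 3.83% the unadjusted test (limma). The lowest adjusted p of a member was 0.909.

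The 2 array sets differed more than the genotypes did. In limma with genotype in the model, 5 of 10 genes differed between the sets, where 42.2% of all probe sets did, so the share of these genes was near the background. *Atf5*, *Rtp2* and *Ehmt2* were higher in the second set, as were 10.4% of all probe sets, and *Lbr* and *Reep1* were lower, as were 31.8%. In these 5 genes the sets did not overlap, as in 23.3% of all probe sets. The median difference over all probe sets was -0.10, and it moved to 0.05 when the values were used as deposited, without the percentile shift, so a direction between the sets depends on the scaling. What separates the sets was not tested, and age cannot be fully told apart from them.

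*Atf5* had levels of 2.85 to 2.96 in the second set and 2.54 to 2.65 in the first, a difference of 0.30 (standard error 0.04, limma adjusted p = 0.000216). *Rtp2* had 2.50 to 2.67 in the second set and 2.24 to 2.33 in the first, a difference of 0.31 (standard error 0.04, limma adjusted p = 0.000185). *Ehmt2* had 0.38 to 0.51 in the second set and 0.20 to 0.27 in the first, a difference of 0.19 (standard error 0.04, limma adjusted p = 0.00367). In all 3 genes the difference had the same sign within each genotype, at 0.27, 0.26 and 0.20 in ΔJ mice and 0.33, 0.36 and 0.18 in wild-type mice. Relative to the median of all probe sets the differences were 0.40, 0.40 and 0.28, and all 3 were called under each of the 3 other scalings. Under those scalings 12540 to 14660 of all 35556 probe sets were called. Among P30 mice alone, the differences were 0.27 for *Atf5*, 0.27 for *Rtp2* and 0.22 for *Ehmt2*. All 3 were called there, as were 12002 of all probe sets.

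*Reep1* had levels of 0.52 to 0.68 in the second set and 0.74 to 0.78 in the first, a difference of -0.14 (standard error 0.04, limma adjusted p = 0.0175). *Lbr* had -1.5e-05 to 0.53 in the second set and 0.53 to 0.62 in the first, a difference of -0.30 (standard error 0.08, limma adjusted p = 0.0114). Neither was called when the values were used without a shift or centred on the median of each array. In the values without a shift, the difference was -0.00112 for *Reep1* and -0.16 for *Lbr*, and *Kdm1a* was called instead, at 0.22. Among P30 mice alone the difference of *Lbr* was -0.16 and was not called. *Cbx5* and *Rtp1*, at -0.12 each, and *Ehmt1*, *Eif2ak3* and *Kdm1a*, at -0.04, -0.05 and 0.08, were not called. For *Rtp1* and *Rtp2*, paralogous genes of the same role, the differences between the sets were -0.12 and 0.31 in the shifted values and 0.02 and 0.45 without a shift, and the gap between these genes was not tested.

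**Figure D3:**
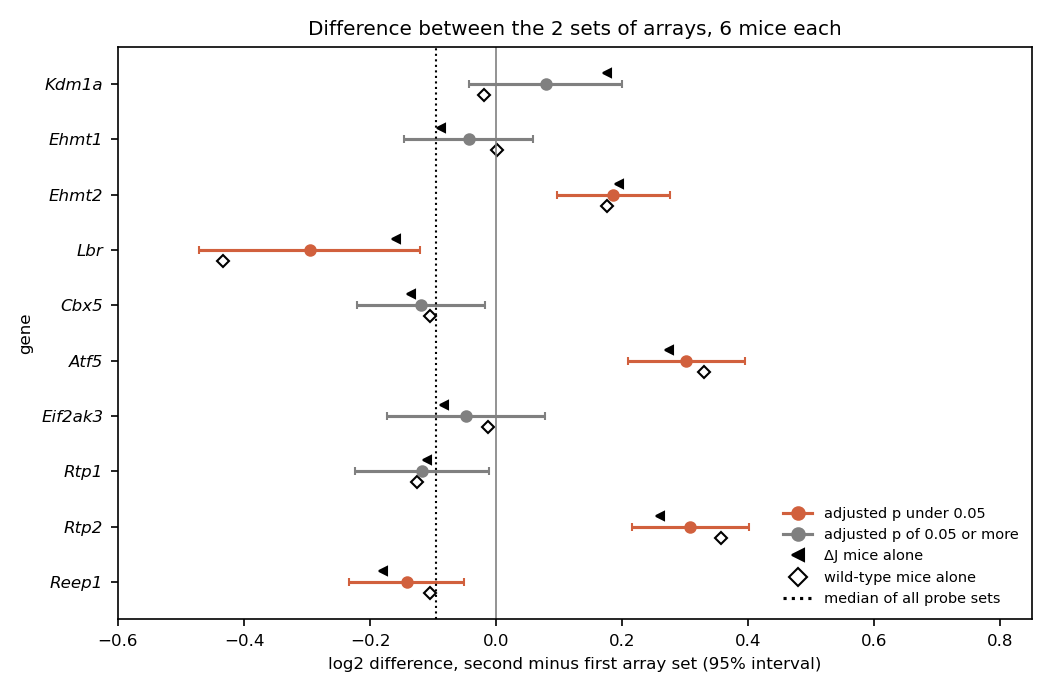
Difference between the second and the first array set (log2, horizontal axis) with 95% intervals from limma, orange where the adjusted p was under 0.05 and grey otherwise. Black triangles give the difference among the 3 and 3 ΔJ mice and open diamonds that among wild-type mice, and the dotted line is the median of all probe sets at -0.10. *Atf5*, *Rtp2* and *Ehmt2* lie to the right at 0.30, 0.31 and 0.19, and *Lbr* and *Reep1* to the left at -0.30 and -0.14.

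Sex was tested in the same way because it was not balanced between the genotypes. With genotype in the model, 0 of 10 genes differed between females and males at an adjusted p of 0.05 and 0 at an unadjusted p of 0.05 (limma), where 0.0141% of all probe sets passed the adjusted and 4.65% the unadjusted test. The differences of females minus males ran from -0.09 for *Cbx5* to 0.07 for *Kdm1a*, with 7 females and 5 males. The interaction of genotype and sex was not called for any of the 10 genes, with 0 also at an unadjusted p of 0.05 and over all probe sets 0% passed the adjusted and 3.4% the unadjusted test (limma).

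No other gene of the 3 pathways was called between genotypes either. Over all probe sets 0.135% passed the adjusted and 3.33% the unadjusted test (limma). The silencing list held 34 genes, among them other HP1 proteins, histone methyltransferases, lamins, DNA methyltransferases and histone deacetylases, and 30 were analysed here. Of these, 0 passed an adjusted p of 0.05 between genotypes and 0 an unadjusted p of 0.05 (limma), 20 log2 fold changes were positive and 10 negative, and their median was 0.02. The smallest p outside the 5 genes above was that of *Hdac2*, a histone deacetylase of the complexes in which LSD1 acts. It had a mean level of 1.96 ± 0.13 in ΔJ mice and 1.77 ± 0.17 in wild-type mice (SD, n = 6 each), a log2 fold change of 0.19 with a 95% interval of -0.0052 to 0.38 and an adjusted p of 0.993 (limma). Its difference was 0.32 within the second array set and 0.06 within the first. Next came *Lmnb1*, which encodes lamin B1 of the nuclear lamina, at 0.12, *Suv39h2*, a methyltransferase of lysine 9 of histone H3, at 0.10, and *Cbx1*, which encodes heterochromatin protein 1β, at 0.09.

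Of 29 genes of the unfolded protein response and related feedback, 28 were analysed here and 0 passed at an adjusted or 0 at an unadjusted p of 0.05 (limma). Their median log2 fold change was -0.01, with 12 positive and 16 negative. *Chac1*, a target of the ATF4 branch that breaks down glutathione, had a mean of -0.82 ± 0.16 in ΔJ mice and -0.66 ± 0.08 in wild-type mice (SD, n = 6 each), a log2 fold change of -0.17 with a 95% interval of -0.34 to 0.0046. *Ddit3*, which encodes the stress factor CHOP, was at 0.11, *Eif2ak2*, which encodes the kinase PKR, at 0.14, and *Ern2*, a sensor of unfolded proteins of the IRE1 family, at -0.14. The 95% intervals of all 4 included 0. Without ΔJ replicate 4, the highest of the 12 mice for *Eif2ak2* at 0.20, its log2 fold change was 0.036, and without wild-type replicate 6 that of *Ddit3* was 0.062.

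Of 17 transport genes, which included the other RTP and REEP genes, chaperones and cilia genes, 16 were analysed here. Of these, 0 passed an adjusted and 1 an unadjusted p of 0.05 (limma), where 0.135% and 3.33% of all probe sets did. The gene that passed was *Reep6*, of the REEP family. Its lowest and highest levels were 1.86 and 2.67 in ΔJ mice and 2.52 and 2.90 in wild-type mice. Its mean was 2.37 ± 0.29 in ΔJ mice and 2.69 ± 0.14 in wild-type mice (SD, n = 6 each), a log2 fold change of -0.32 with a standard error of 0.12, an unadjusted p of 0.0225 and an adjusted p of 0.993 (limma). The ΔJ mice at 1.86 and 2.26, replicates 5 and 4, were the lowest of all 12 mice, and the difference was -0.57 within the second array set and -0.08 within the first. *Rtp3*, at a log2 fold change of -0.12, had a level of -3.00 ± 0.19 in ΔJ mice and -2.89 ± 0.26 in wild-type mice (SD, n = 6 each). The Y-linked gene *Kdm5d*, which females lack, read -4.23 to -3.05 in the 7 females, and the Y-linked *Uty* and *Eif2s3y* read lower. *Rtp3* levels of -3.05, -3.14, -3.20 and -3.09 in ΔJ mice and of -3.24 and -3.05 in wild-type mice fell within the *Kdm5d* range. The other levels of *Rtp3* were above that range. Whether *Rtp3* was detected was not tested. *Reep4* was at -0.09 and *Calr*, which encodes the chaperone calreticulin and was in the feedback list as well, at -0.09.

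**Figure D4:**
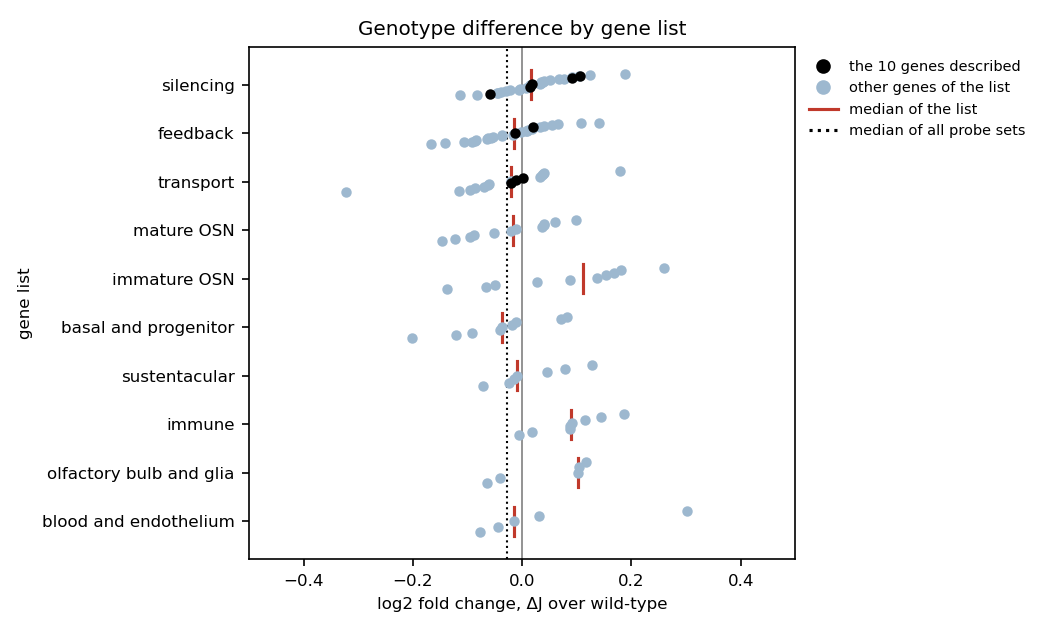
Log2 fold change of ΔJ over wild-type mice (horizontal axis) for each measured gene of the 3 pathway lists and of 7 lists of cell type markers. Black points are the 10 genes described, blue points the other genes, red bars the median of each list and the dotted line the median of all probe sets at -0.03, and no gene shown was called. *Reep6*, at -0.32, is the point farthest to the left.

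Between the array sets, other genes of the pathways moved in either direction. In the second set 4 of 30 silencing genes were higher and 8 lower, 4 of 28 feedback genes were higher and 7 lower, and 2 of 16 transport genes were higher and 5 lower, at an adjusted p under 0.05 from limma. The 5 genes above are among these. The shares called, 12 of 30, 11 of 28 and 7 of 16, were near the background of 42.2%.

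The cell types of the MOE showed no called difference between genotypes. In 7 lists of markers 0 genes passed an adjusted p of 0.05 (limma), where 0.135% of all probe sets did. The median log2 fold change was -0.02 over 12 mature OSN genes and 0.11 over 10 immature OSN genes. Of the immature OSN genes 1 passed an unadjusted p of 0.05 (limma), where 3.33% of all probe sets did. The gene that passed was *Tubb3*, a neuronal tubulin named here after its value was seen, at a log2 fold change of 0.26. The genes of the mature OSN list averaged 2.62 to 2.84 per ΔJ mouse and 2.66 to 2.82 per wild-type mouse, and those of the immature list 1.46 to 1.51 per ΔJ mouse and 1.33 to 1.48 per wild-type mouse. The medians of the other lists were -0.04 over 9 genes of basal cells and progenitors, -0.01 over 7 of sustentacular cells, 0.09 over 8 of immune cells, 0.10 over 5 of olfactory bulb and glia and -0.02 over 5 of blood and endothelium. The part of cell composition in the values of the 10 genes was not tested. *Gap43* and *Gng8*, of immature OSNs, were at log2 fold changes of 0.18 and -0.14. *Neurog1*, of neuronal progenitors, was at -0.04, and *Cyp2g1* and *Cyp1a2*, of sustentacular cells, at -0.01 and -0.07. *Ptprc* and *Cd68*, of immune cells, were at 0.09 and 0.02, *Mbp*, of myelin, at 0.12, and the red cell genes *Alas2* and *Slc4a1* at 0.30 and -0.02. The values of *Mbp* and *Ptprc* rested on single ΔJ mice, at 0.014 for *Mbp* without replicate 5 and -0.0080 for *Ptprc* without replicate 4. For *Alas2*, ΔJ replicates 4 and 5, at 0.59 and 0.031, were above the other ΔJ mice, at -1.64 to -1.07. Without replicate 4 the log2 fold change of *Alas2* was 0.028.

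The genes whose values followed *Kdm1a*, *Atf5* and *Rtp1* most closely were found from the root mean square difference of values centred on their own mean over the 12 arrays. For *Kdm1a* they were *Zfp639*, *Mff* and *H2bc21*, with differences of 0.0390, 0.0406 and 0.0409 beside an SD of 0.0993 for *Kdm1a* itself. For *Atf5* they were *Fam160a2*, *Ints1* and *Akt2*, with differences of 0.0365, 0.0393 and 0.0416 beside an SD of 0.164. These 3 genes differed between the array sets by 0.28, 0.31 and 0.28 and were at 0.02, -0.02 and 0.02 between genotypes. They were chosen for closeness to *Atf5* over the same arrays, so values near those of *Atf5* follow from the choice. For *Rtp1* they were *Btf3l4*, *Fgf9* and *Lst1*, with differences of 0.0421, 0.0449 and 0.0453 beside an SD of 0.0864. These likenesses are descriptions over arrays that share the split into 2 sets.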

How the data were processed

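RNA of the MOE of 6 ΔJ and 6 wild-type mice was measured on Mouse Gene ST Array 1.0 arrays, 1 per mouse. For every mouse the authors deposited a log2 signal for each of 35556 probe sets. Affymetrix Expression Console is named in the submitters' processing notes, and its background correction, summarization and version were not stated in these sources. In the methods of the paper, GeneSpring GX 14 shifted the values by their 75th percentile and ran a moderated test. Genotype, sex, age and replicate number were taken from the labels, which name separate mice.

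From the values of each array its own 75th percentile was subtracted, which ran from 8.40 to 8.56 among ΔJ arrays and from 8.38 to 8.55 among wild-type arrays. All probe sets were fitted with limma 3.58.1 (lmFit and eBayes) in R 4.3.3 on genotype alone, and Benjamini-Hochberg adjustment ran over all 35556, with a call at an adjusted p under 0.05. Further fits added the array set, sex, age or replicate number, or tested interactions. The genotype fit with age did not hold the array set. The array sets were found from the largest gap in the SD of the arrays. The platform annotation gave 21789 probe sets a single symbol, 1621 several and 12146 none, with symbols updated through Entrez identifiers to RefSeq GRCm38.p6. Of several probe sets of a gene, the one with the highest mean level was used. Gene lists covered silencing, feedback, transport, mature and immature OSNs, basal cells and progenitors, sustentacular cells, immune cells, olfactory bulb and glia, and blood and endothelium. Some genes of these lists are not reported here. The 10 genes and the lists were chosen with earlier results of these data known. The genes named are these 10, the 4 others of each pathway list with the smallest p and any called, the 3 closest in profile to *Kdm1a*, *Atf5* and *Rtp1*, and the first 2 of each marker list. The other genes of the immature OSN list were named after their values were seen, and Y-linked genes gauged the background. The steps were tested on simulated data. The number of arrays limits the precision.

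The deviations of same-numbered ΔJ and wild-type mice from their genotype means correlated at 0.18 to 0.44, above 0.1 in all 6 pairs, so a blocked fit on these numbers was run beside the one on genotype alone. Their source is not stated beyond the wild-type mice being littermates. Deviations from the means of genotype and array set correlated above 0.1 in 0 of 6 pairs. Of the ΔJ arrays, 1 of 6 correlated best with the wild-type array of its own number. Alternatives were other scalings, a filter on dim probe sets, covariates, P30 mice only, each array set alone, eBayes with trend and robust options, the replicate block and leaving out each mouse.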

Additional observations from a re-analysis of the deposited data

Results flagged for a closer look

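In 3 of 68 groups of 6 mice examined for a mouse far from the others, a mouse stood apart, and chance gives about 1 in 20. *Lbr* in ΔJ replicate 6 was at 0.16, with the nearest ΔJ mouse at 0.51 and the highest at 0.59, so the gap took 0.824 of the range of the group. This mouse, of P33, was in the second array set, where the wild-type mice were also low. Without it the log2 fold change of *Lbr* was 0.17, and without wild-type replicate 6, the lowest of the 12 mice, it was 0.032, and neither was called. *Mbp*, a myelin gene, was at -0.23 in ΔJ replicate 5, against -0.80 in the nearest and -0.92 in the farthest ΔJ mouse, a gap of 0.824 of the range. *Slc4a1*, a red cell gene, was at 0.18 in ΔJ replicate 4, against -0.79 in the nearest and -1.22 in the farthest, a gap of 0.691 of the range. ΔJ replicates 4 and 5 were also the mice with the 2 highest levels of *Kdm1a* and the 2 lowest of *Reep6*. They were the 2 highest as well for *Gap43*, a gene of immature OSNs, at 1.61 and 1.81. Within the second array set the genotype difference was 0.19 for *Kdm1a*. Among the 10 genes of the immature OSN list it was 0.37 for *Gap43*, 0.34 for *Tubb3*, 0.29 for *Stmn1* and 0.28 for *Stmn4*. It was 0.18 for *Dpysl3*, 0.12 for *Marcksl1*, -0.0046 for *Stmn2*, -0.11 for *Dcx*, -0.16 for *Dpysl5* and -0.23 for *Gng8*. Apart from *Gap43* and *Gng8*, the genes of this list were named after their values were seen. The part of other cells in these values was not tested.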

How the results depend on the processing

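Over 24 alternative settings of the genotype comparison, 12 of them leaving out 1 mouse, 0 of 240 values of the 10 genes passed an adjusted p of 0.05 (limma, lowest 0.635), and they ran from -0.10 to 0.24. The counts called in the silencing, feedback and transport lists were 0 in every setting, as were those of the 10 genes by sex and by interaction with array set or sex. The replicate block, which pairs mice by number, called 51 probe sets (0.143%), gave a lowest adjusted p of 0.635 among the 10 genes and changed no call of theirs. Between the array sets, 4 to 7 of the 10 genes were called under settings other than leaving out 1 mouse. In those settings that kept all 35556 probe sets, 12002 to 15229 of them were called. With the filter on dim probe sets, 6437 of the probe sets kept were called. With 1 mouse left out, 5 to 6 of the 10 genes were called, where *Cbx5* was added. The counts over all probe sets for these fits are not shown here.

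Of 405 genotype values of named genes under settings other than leaving out 1 mouse, 34 changed sign, none of them called, and the cause was not tested. In the first array set alone these were *Kdm1a* (-0.0066), *Lbr* (-0.031), *Eif2ak3* (0.022), *Rtp1* (-0.0069), *Rtp2* (0.037), *Reep1* (0.016), *Gap43* (-0.0071), *Neurog1* (0.0024), *Cyp2g1* (0.013), *Cyp1a2* (0.071), *Ptprc* (-0.027), *Cd68* (-0.082), *Mbp* (-0.022) and *Alas2* (-0.34). In the second set alone they were *Ehmt1* (-0.030), *Atf5* (-0.0075) and *Slc4a1* (0.24). With median centring they were *Eif2ak3* (0.030), *Rtp2* (0.031), *Reep1* (0.021), *Neurog1* (0.0014), *Cyp2g1* (0.033) and *Slc4a1* (0.027), without a shift *Rtp2* (0.0012) and *Cyp2g1* (0.0033), and with quantile normalization *Atf5* (-0.0060) and *Rtp1* (-0.021). In P30 mice they were *Eif2ak3* (0.0086), *Rtp1* (-0.040) and *Rtp2* (0.051), with age as a covariate *Rtp1* (-0.013) and *Rtp2* (0.031), and with sex as a covariate *Rtp1* (-0.011) and *Slc4a1* (0.012). With 1 mouse left out, signs changed for *Ehmt1* (-0.0084 to 0.035), *Ehmt2* (-0.015 to 0.049), *Atf5* (-0.020 to 0.061), *Eif2ak3* (-0.041 to 0.010), *Rtp1* (-0.023 to 0.036), *Rtp2* (-0.053 to 0.032), *Reep1* (-0.040 to 0.011), *Cyp2g1* (-0.027 to 0.018), *Ptprc* (-0.0080 to 0.14), *Cd68* (-0.050 to 0.11) and *Slc4a1* (-0.21 to 0.065).

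Between the array sets, signs changed without a shift for *Ehmt1* (0.097), *Cbx5* (0.021), *Eif2ak3* (0.093) and *Rtp1* (0.023), and with median centring for *Ehmt1* (0.044) and *Eif2ak3* (0.040). Calls were lost without a shift for *Lbr* (-0.16) and *Reep1* (-0.0011), with median centring for *Lbr* (-0.21) and *Reep1* (-0.054) and in P30 mice for *Lbr* (-0.16). Calls were gained without a shift for *Kdm1a* (0.22), with median centring for *Kdm1a* (0.17), with quantile normalization for *Cbx5* (-0.13) and *Rtp1* (-0.15) and with trend and robust options for *Cbx5* (-0.12). The settings of scaling and age for single genes between the sets were chosen after seeing the data. *Suv39h2*, *Ern2* and *Rtp3* were left out by the filter on dim probe sets.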
